A study of Oryza sativa with 2 samples.

Results

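Sucrose is the main form in which a rice leaf exports the carbon it fixes, and 7 genes of its synthesis and transport were compared here between leaves of the *yl-1* mutant and of the wild-type. They are 1 gene of cytosolic fructose bisphosphatase (FBPase), the sucrose phosphate synthase genes *SPS1*, *SPS8* and *SPS11*, and the sucrose transporter genes *SUT1*, *SUT2* and *SUT4*. The genes were chosen by function through their locus IDs, with earlier results of these data known. Each ID was found in 1 entry of the deposited table, which makes 7 of 42152 entries. The table carries locus IDs only, so the gene names follow rice gene nomenclature and not the table.

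The *yl-1* plants came from a mutant library that was made with EMS in *indica* cv. Zhongjiazao 17, and carry a single-base change in *YL-1*, a subunit gene of the cyclase of chlorophyll synthesis. The wild-type plants were Zhongjiazao 17. Seedlings of both were raised on half-strength MS medium at 26°C with 12 h of light at 300 μmol m−2 s−1, and poly(A) RNA of 4-week-old leaves was sequenced. There was 1 library per genotype, so no difference below has a replicate check and none was tested, and an EMS mutant can carry further changes. *YL-1* (LOC_Os01g17170) was at 1124 FPKM in the *yl-1*-labelled library and 671 FPKM in the wild-type-labelled library. For 24 genes that also stand in a supplementary list, *YL-1* among them, 0 printed values equal the column of the same genotype name to within rounding, while 18 under the *yl-1* heading equal the wild-type column and 23 under the wild-type heading equal the *yl-1* column. The other 6 under the *yl-1* heading equal neither column. None of the 7 sucrose genes is on that list. By qRT-PCR the study had *YL-1*, *YGL1*, *OsCAO1* and *OsDVR* lower in the mutant, and *CHLH* and *OsChlI* higher. In the deposited columns all 6 of these genes were higher under the *yl-1* name, with log2 ratios from 0.18 to 0.82. The qRT-PCR of *YL-1* and the 3 genes after it therefore runs against the deposited names, and that of the 2 Mg-chelatase genes runs with them. Both Mg-chelatase genes are among the 6 whose printed value under the *yl-1* heading equals neither column. The libraries are named here as the deposited columns label them, and every direction below turns around if the headings of the supplementary list are the right ones.

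Sucrose is made in the cytosol from triose phosphate that leaves the chloroplast. Cytosolic FBPase removes a phosphate from fructose bisphosphate in the first irreversible step of this route and is held back by the regulator fructose 2,6-bisphosphate. Sucrose phosphate synthase joins the resulting fructose phosphate to UDP-glucose, and a phosphatase then releases sucrose. SUT proteins are proton-coupled carriers that move sucrose across membranes, and they serve both the loading of the phloem and the exchange with the vacuole. Sucrose synthase and invertase split sucrose again.

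None of the 7 genes was far apart between the libraries. Levels are given in FPKM, the number of sequenced fragments divided by the length of the transcript and by the mapped fragments of the library, so that genes of different length can be set side by side. Differences are log2 ratios of (FPKM + 1) in the *yl-1*-labelled library over the wild-type-labelled library, for the 14559 entries whose mean FPKM reached 1. All 7 genes passed that filter, and 0 of 7 differed by 2-fold in either direction, where 6.15% of all entries compared did (2.50% higher and 3.65% lower). At 1.5-fold the count was again 0 of 7, beside 17.3% of all entries (7.71% higher and 9.57% lower). Of the 7 genes, 5 were lower in the *yl-1*-labelled library, beside 48.3% of all entries, and 2 were higher, beside 51.7%. The median log2 ratio of the 7 genes was -0.21, against 0.014 over all entries compared.

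**Figure D1:**
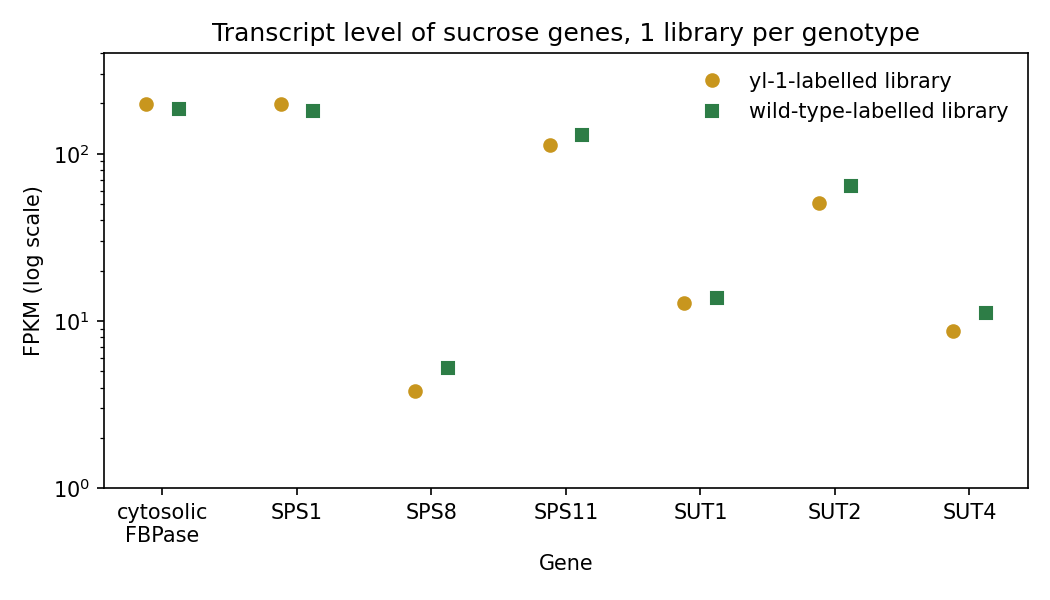
FPKM (log axis) of the 7 sucrose genes in the *yl-1*-labelled library (circles) and the wild-type-labelled library (squares), 1 library each, with no error bars because there are no replicates. The order of the genes by level is the same in both libraries, with cytosolic FBPase highest at 199 and 186 FPKM and *SPS8* lowest at 3.82 and 5.21 FPKM.

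Cytosolic FBPase (LOC_Os01g64660, chromosome 1) was the most abundant of the 7 transcripts. It stood at 199 FPKM in the *yl-1*-labelled library and 186 FPKM in the wild-type-labelled library, a ratio of 1.07 and a log2 ratio of 0.09. It ranked 492nd and 516th among all entries of these libraries, in that order. Its direction turned with the scaling, to a log2 ratio of -0.07 once both libraries had the same FPKM sum.

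*SPS1* (LOC_Os01g69030, chromosome 1), a sucrose phosphate synthase gene of source leaves, lay next to it. Its level was 197 FPKM in the *yl-1*-labelled library and 181 FPKM in the wild-type-labelled library, a log2 ratio of 0.12 that also turned, to -0.03, with the same FPKM sum. The transcripts of *SPS1* and cytosolic FBPase, which encode successive controlled steps, were present at nearly equal levels within each library, with *SPS1* at 0.994 times FBPase in the *yl-1*-labelled library and 0.973 times in the wild-type-labelled library.

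*SPS11* (LOC_Os11g12810, chromosome 11) was the other abundant synthase gene. It had 112 FPKM in the *yl-1*-labelled library and 130 FPKM in the wild-type-labelled library, a log2 ratio of -0.21. *SPS8* (LOC_Os08g20660, chromosome 8) was a minor transcript, at 3.82 FPKM in the *yl-1*-labelled library and 5.21 FPKM in the wild-type-labelled library. Its log2 ratio was -0.37, and without a pseudocount it was -0.45. This was the farthest from 0 of the 7 with FPKM as deposited, whereas with the same FPKM sum *SUT2* was farther, at -0.50 against -0.49 for *SPS8*. *SPS8* was also the gene with the lowest level, and the number of fragments behind its values is unknown.

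*SPS1*, *SPS8* and *SPS11* together hardly differed with FPKM as deposited. Their FPKM summed to 314 in the *yl-1*-labelled library and 316 in the wild-type-labelled library, a ratio of 0.991. Rescaling to the same FPKM sum multiplies every level of the *yl-1*-labelled library by 0.897. It therefore lowers this ratio, and also that of the transporter sums below. Further copies of sucrose phosphate synthase, which belong to a list described below, are left out of these synthase sums. Within the sum of *SPS1*, *SPS8* and *SPS11*, the weight lay more on *SPS1* in the *yl-1*-labelled library. There *SPS1* held 62.9% of it, against 57.3% in the wild-type-labelled library. *SPS11* held 35.9% in *yl-1* and 41.1% in wild-type, and *SPS8* 1.22% in *yl-1* and 1.65% in wild-type. The level of *SPS1* over that of *SPS11* was 1.76 in the *yl-1*-labelled library and 1.39 in the wild-type-labelled library. Such ratios within a library do not depend on how the libraries are scaled to each other, but they do depend on how fragments that match several synthase genes were shared out, which is not given in the sources used here.

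**Figure D2:**
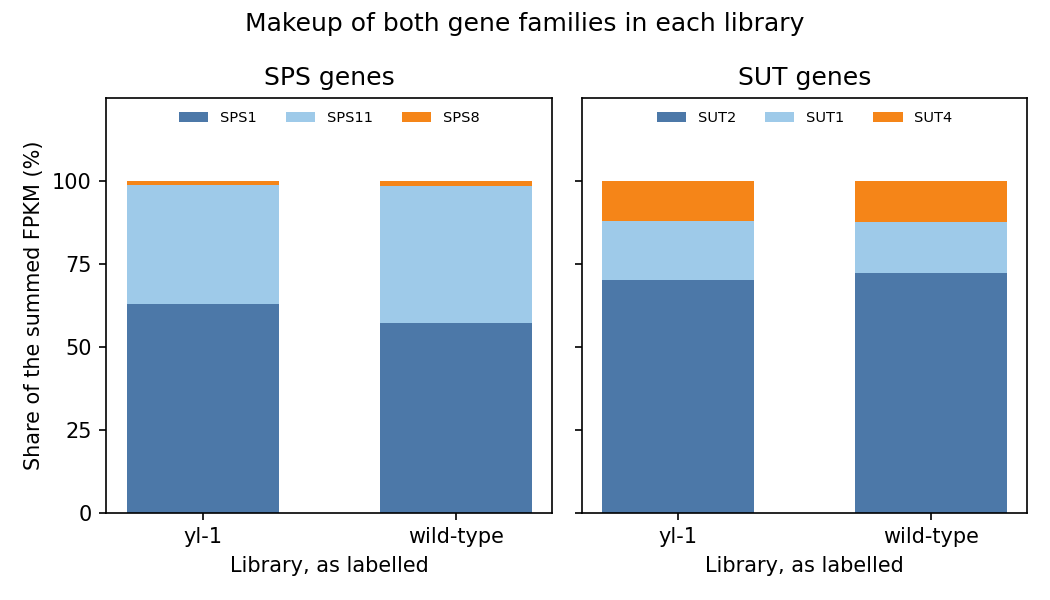
Share of the summed FPKM (%) that each gene holds within *SPS1*, *SPS8* and *SPS11* (left) and within *SUT1*, *SUT2* and *SUT4* (right), in the *yl-1*-labelled library and the wild-type-labelled library. *SPS1* holds 62.9% and 57.3% of the FPKM of these synthase genes, while *SUT2* holds 70.1% and 72.2% of that of these transporter genes.

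The sucrose transporter genes were all lower in the *yl-1*-labelled library, none by 2-fold. *SUT2* (LOC_Os12g44380, chromosome 12), whose protein is known in rice as a vacuolar membrane carrier that lets sucrose out of the vacuole, was the main transporter transcript. It stood at 50.4 FPKM in the *yl-1*-labelled library and 64.4 FPKM in the wild-type-labelled library, a log2 ratio of -0.35. *SUT4* (LOC_Os02g58080, chromosome 2) was at 8.71 FPKM in the *yl-1*-labelled library and 11.1 FPKM in the wild-type-labelled library, a log2 ratio of -0.32.

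*SUT1* (LOC_Os03g07480, chromosome 3), the carrier known from the phloem of rice and from filling grains, differed least in this family. It had 12.8 FPKM in the *yl-1*-labelled library and 13.7 FPKM in the wild-type-labelled library, a log2 ratio of -0.09. In a whole leaf, fewer phloem cells and less RNA per cell cannot be told apart from such values.

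Summed over *SUT1*, *SUT2* and *SUT4*, transporter FPKM was 71.9 in the *yl-1*-labelled library and 89.2 in the wild-type-labelled library. The ratio was 0.806 with FPKM as deposited. The balance between *SUT2* and *SUT4* was the same, with *SUT2* at 5.79 times the level of *SUT4* in both libraries. *SUT2* over *SUT1* was 3.94 in the *yl-1*-labelled library and 4.71 in the wild-type-labelled library. The summed FPKM of *SPS1*, *SPS8* and *SPS11* was 4.36 times that of these transporter genes in the *yl-1*-labelled library. It was 3.55 times in the wild-type-labelled library.

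Each difference was also set beside those of all genes. The share of entries compared with a smaller absolute log2 ratio was 66.0% for *SPS8*, 64.2% for *SUT2* and 60.8% for *SUT4*. It was 44.6% for *SPS11* and 20.6% to 27.7% for *SPS1*, cytosolic FBPase and *SUT1*. In the band of 100 to 1000 FPKM, with cytosolic FBPase, *SPS1* and *SPS11*, the quartiles of the log2 ratio were -0.25 and 0.34 over 852 entries, and all 3 genes lay between them. In the band of 10 to 100 FPKM the quartiles were -0.25 and 0.22 over 5100 entries, with *SUT1* between them and *SUT2* below. In the band of 1 to 10 FPKM they were -0.23 and 0.24 over 8514 entries, with *SPS8* and *SUT4* below.

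**Figure D3:**
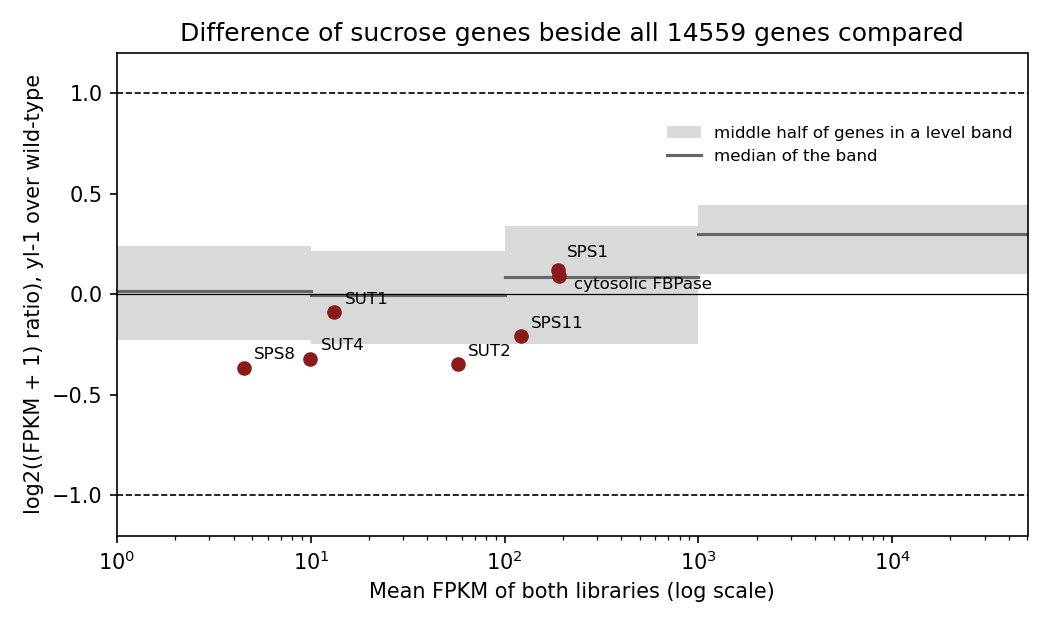
log2((FPKM + 1) ratio) of the *yl-1*-labelled library over the wild-type-labelled library (y axis) against the mean FPKM of both (x axis, log scale) for the 7 sucrose genes (points). Grey blocks run between the quartiles of all entries compared in 4 bands of level, with the median as a line, and dashed lines mark 2-fold; all 7 points lie between the dashed lines, and *SPS8*, *SUT4* and *SUT2* lie below the lower quartile of their band.

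The directions of the transporters, *SPS11* and *SPS8* were the same under every pseudocount, filter and scaling that was run, except that *SPS8* drops out where a mean of 5 FPKM is asked for. Rescaling both libraries to the same FPKM sum, which moved the median of all entries compared from 0.014 to -0.12, put all 7 genes lower in the *yl-1*-labelled library, beside 64.1% of all entries. The other scalings left 2 genes higher and 5 lower.

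**Figure D4:**
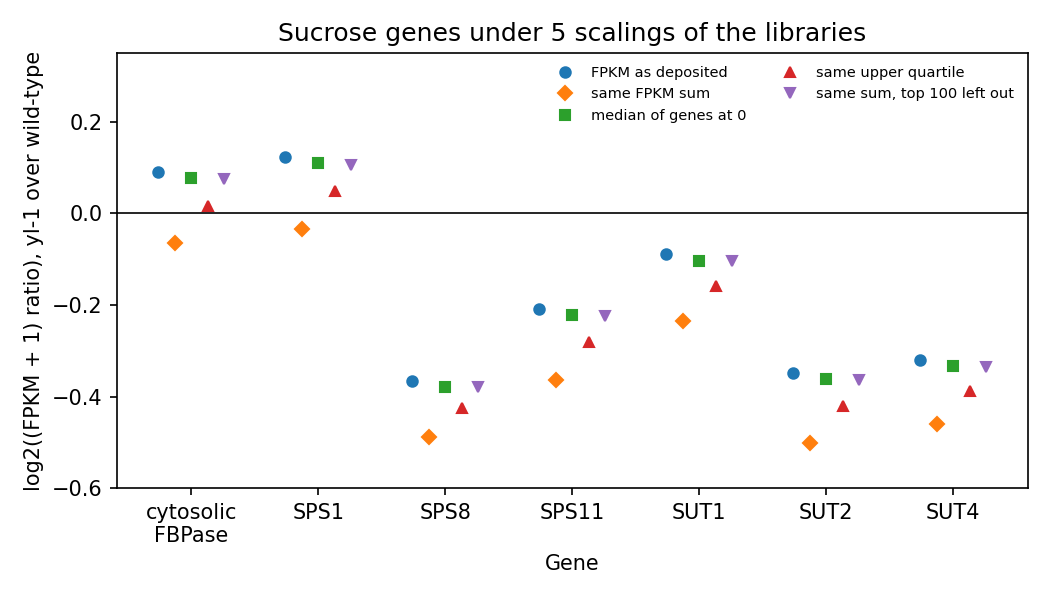
log2((FPKM + 1) ratio) of the *yl-1*-labelled library over the wild-type-labelled library for each of the 7 sucrose genes with FPKM as deposited and with 4 other scalings of the libraries (symbols). Cytosolic FBPase and *SPS1* lie at 0.09 and 0.12 as deposited and at -0.07 and -0.03 with the same FPKM sum, and the other 5 genes lie below 0 under each scaling.

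Genes of neighbouring steps were listed by locus ID from general knowledge of rice nomenclature, which no source used here pairs with the IDs, so they are described as lists. The list of other sucrose synthesis loci covers the export of triose phosphate from the chloroplast, the sugar phosphate isomerase and mutase steps, the supply of UDP-glucose, the making of fructose 2,6-bisphosphate, sucrose phosphatase and further copies of FBPase and sucrose phosphate synthase. Of its 15 loci 13 could be compared. On the higher side in *yl-1* were 10 and on the lower side 3, beside 51.7% and 48.3% of all entries compared. Past 2-fold there were 0, beside 6.15% of all entries. The median log2 ratio was 0.42, against 0.014 over all entries. The log2 ratios of the compared loci ran from -0.47 to 0.83. The FPKM of the 15 loci summed to 645 in the *yl-1*-labelled library and 472 in the wild-type-labelled library. The median of this list was above 0 under every scaling (lowest 0.26, with the same FPKM sum), while that of the 7 sucrose genes was below 0 (lowest -0.36, in the same setting). The difference between the lists was not tested.

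The other sugar carriers that were listed were low or at 0 in these leaves, and carriers outside the list were not looked at. Of 9 loci for further SUT genes, SWEET sugar carriers and vacuolar sugar carriers, 4 were listed at 0 in both libraries and 2 could be compared, with log2 ratios of 0.03 and 0.12. The highest level in the list was 5.78 FPKM in the *yl-1*-labelled library and 5.63 FPKM in the wild-type-labelled library, so *SUT2* was well above any of these loci.

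Of 13 loci for sucrose synthases and invertases, which split sucrose, 6 could be compared and 3 were listed at 0 in both libraries. Here 4 were on the higher side in *yl-1* and 2 on the lower side, beside 51.7% and 48.3% of all entries compared. The median log2 ratio was 0.15, against 0.014 over all entries. Past 2-fold there was 1 locus, beside 6.15% of all entries. LOC_Os03g22120, named because it was the single locus past 2-fold and so chosen after its values were seen, was at 2.26 FPKM in the *yl-1*-labelled library and 7.52 FPKM in the wild-type-labelled library, a log2 ratio of -1.39. The largest difference upward in that list was at LOC_Os02g01590, also chosen after its values were seen, with 128 FPKM in the *yl-1*-labelled library and 72.1 FPKM in the wild-type-labelled library (log2 ratio 0.82). The 5 control genes had a median of -0.02, with log2 ratios from -0.13 to 0.19.

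**Figure D5:**
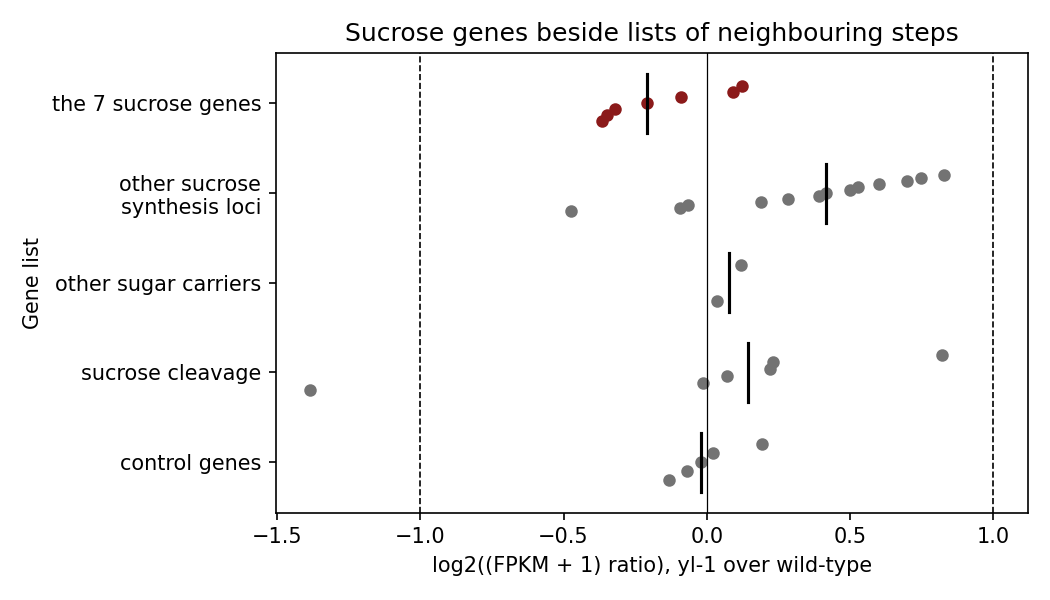
log2((FPKM + 1) ratio) of the *yl-1*-labelled library over the wild-type-labelled library (x axis) for the 7 sucrose genes and for each compared locus of 4 lists (points), with list medians as vertical bars and 2-fold as dashed lines. The medians are -0.21 for the 7 sucrose genes, 0.42 for other sucrose synthesis loci, 0.08 for other sugar carriers, 0.15 for sucrose cleavage and -0.02 for control genes.

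Both libraries had leaf transcripts. The 4 photosystem genes taken as leaf markers (*PsbO*, *PsaL*, *Psb28* and *PSI-N*) ranged from 485 to 5206 FPKM in the *yl-1*-labelled library and from 387 to 3824 FPKM in the wild-type-labelled library. All 4 were higher in the *yl-1*-labelled library, with a median log2 ratio of 0.29, beside 51.7% of all entries compared. Among the 93 entries with a mean of at least 1000 FPKM, where *PsbO*, *PsaL* and *PSI-N* lie, 82.8% were higher and the median was 0.30. In the band of 100 to 1000 FPKM, with *Psb28*, 57.5% were higher. The supplementary list heads the values of these 4 genes with the other genotype. FPKM summed to 823855 in the *yl-1*-labelled library and 738866 in the wild-type-labelled library, and the number of reads is unknown. Of 3 loci of root silicon and nitrate transporters, 1 was listed at 0 in both libraries, 1 was under 1 FPKM, and LOC_Os02g51110 stood at 13.5 FPKM in the *yl-1*-labelled library and 8.61 FPKM in the wild-type-labelled library. The 3 loci summed to 13.8 FPKM in *yl-1* and 9.16 FPKM in wild-type. Their part in the differences of the sucrose genes was not tested.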

How the data were processed

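Leaf mRNA was sequenced in 1 library of *yl-1* and 1 of wild-type. The authors deposited FPKM values. The processing notes of the submitters list TopHat, Cufflinks and Cuffdiff. Their versions, the genome build, annotation and filters, and how fragments with several matches were shared, were not given in the sources used here. Names of the columns assigned them to genotypes, and 0 columns of values were left unused.

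A log2((FPKM + 1) ratio) was taken wherever the mean FPKM reached 1, and entries past 2-fold were counted. With 1 library per genotype no test was possible. Depth is unknown, and counting error is therefore not given. The 7 genes and the lists (49 loci in 6 lists) were chosen with earlier results of these data known. Named genes were these 7, *YL-1* and genes named by the study, and other loci were named only where stated. Of 41981 locus IDs, 0 matched the RefSeq table of assembly ASM3414082v1, so no sequences are shown. The counting of 2-fold differences was run on a copy of the wild-type-labelled library with planted changes and no added noise. This checks the arithmetic only and says nothing of the spread between libraries. Alternatives were other pseudocounts, filters, scalings and thresholds, and entries summed per locus. Python 3.11.15, numpy 2.4.6, pandas 2.3.3 and matplotlib 3.10.9 were used.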

Additional observations from a re-analysis of the deposited data

How the results depend on the processing

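No paired analysis was possible because each genotype has 1 library. None of the 7 sucrose genes was past 2-fold under any alternative. Rescaling to the same FPKM sum turned the log2 ratios of *SPS1* (-0.034) and cytosolic FBPase (-0.065), and the medians of other sugar carriers (-0.055) and sucrose cleavage (-0.005). Without a filter the median of other sugar carriers was -0.006. Against 364 entries higher and 531 lower in the *yl-1*-labelled library, there were 586 higher and 782 lower with a pseudocount of 0.1. In the same order there were 611 and 818 with 0.01. Where the mean had to reach 5 FPKM (which left out *SPS8*) there were 154 and 268. At 1.5-fold the counts were 1122 and 1393, and at 4-fold 63 and 99. The same FPKM sum moved the share of higher entries among those past 2-fold from 40.7% to 29.6%. That setting multiplies every level of the *yl-1*-labelled library by 0.897 and so lowers the ratios. Why the FPKM sums of the libraries differ was not tested. Over all alternatives the log2 ratio ran from -0.49 to -0.37 for *SPS8*, -0.50 to -0.35 for *SUT2*, -0.46 to -0.32 for *SUT4*, -0.36 to -0.21 for *SPS11* and -0.23 to -0.09 for *SUT1*. Depth is unknown, which limits what low genes such as *SPS8* and *SUT4* can show.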
